A study of Mus musculus with 15 samples.

Results

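The 8 genes described here are Prdm1, Xbp1, Irf4, Sdc1, Tnfrsf17, Jchain, Mzb1 and Derl3, a set of plasma cell genes that was selected on its low level in mutant bone marrow stem and progenitor cells compared with WT. They were found by matching the Ensembl identifiers of the deposited count table to mouse gene symbols, and all 8 were among the 45232 identifiers in the table. Because the comparison of mutant with WT cells chose them, their differences from WT are given below as a description with no test. The differences between the mutant groups were tested, and the libraries of those groups also took part in the choice.

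RNA was sequenced from LSK cells, the lineage-negative, Sca-1-positive, c-Kit-positive fraction of bone marrow that holds the stem cells and early progenitors, in 5 groups of 3 libraries. In 4 groups the cells were donor-derived (CD45.2+) cells that carried both Jak2 V617F and Idh2 R140Q, induced in blood-forming cells by Mx1-Cre, a Cre recombinase under an interferon-responsive promoter. These cells had been transplanted with competing CD45.1 WT marrow into irradiated CD45.1 hosts, which were then given vehicle, AG221 at 40 mg/kg, ruxolitinib at 60 mg/kg, or both drugs at these doses (combined) for 21 to 28 days. AG221 inhibits mutant IDH2 and ruxolitinib inhibits JAK1 and JAK2. The WT group is labelled as CD45.2+ LSK cells of wild type, with no drug named. Neither the age, sex nor transplant history behind each library is given in the sources used here, nor whether 1 library stands for 1 mouse, so the p-values measure the spread between libraries. For the mice of the study as a whole the methods give both sexes, an age of 6 months to 1.5 years and a C57BL/6J background, and not which of them gave which library. Libraries are named by group and by their deposited replicate names, which begin with B for WT and combined libraries and with A for all others. What the letters stand for is not given.

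Plasma cells are the antibody-secreting end stage of the B cell lineage and many reside in bone marrow. IRF4 and BLIMP-1, the product of Prdm1, shut down the B cell program, and XBP1, made active by the IRE1 branch of the unfolded protein response, expands the secretory apparatus. LSK cells are sorted for the absence of lineage antigens, and for expression analysis the marrow had first been cleared of mature cells with a commercial kit for progenitors, whose antibodies are not listed. The study's lineage antibodies were against CD4, CD3, B220, NK1.1, Gr-1, Mac1 and Ter119, and did not name syndecan-1, while plasma cells carry little B220. In bulk RNA, fewer cells of a type and less RNA per cell cannot be told apart.

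The libraries held 18836625 to 32174287 counts, and 17834 genes passed the filter on low counts, including all 8 members. Tnfrsf17 passed only through its WT libraries, whereas the other 7 members also passed without them. Levels are given in CPM, the count relative to the library's total after scaling by the trimmed mean of M-values. Kit, which encodes the sorting antigen c-Kit, was at 740 to 1552 CPM in the 15 libraries, and Ly6a, which encodes Sca-1, at 13.1 to 165.8 CPM. Xist, made from the inactive X chromosome, was at 455 to 511 CPM in WT and at most at 19.5 CPM in the mutant libraries, while the Y-linked gene Ddx3y was at most at 0.101 CPM in WT and at 124 to 206 CPM in the mutant libraries. WT and mutant libraries therefore differed in the sex of their cells as well as in genotype, and the parts of these in any difference from WT cannot be told apart.

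In 7 of the 8 members, all 12 mutant libraries lay below all 3 WT libraries, whatever the treatment. Of all 17834 genes, 10.1% had this pattern, and since the members were chosen on it nothing is read from the difference. The exception was Xbp1, in which only 7 of 12 mutant libraries lay below WT, so that the word lost does not describe it. Relative to the WT mean, the mean in vehicle cells was 2.04% for Jchain, 2.16% for Tnfrsf17, 3.66% for Irf4, 3.84% for Mzb1, 5.79% for Sdc1, 23.4% for Prdm1, 23.97% for Derl3 and 53.8% for Xbp1.

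**Figure D1:**
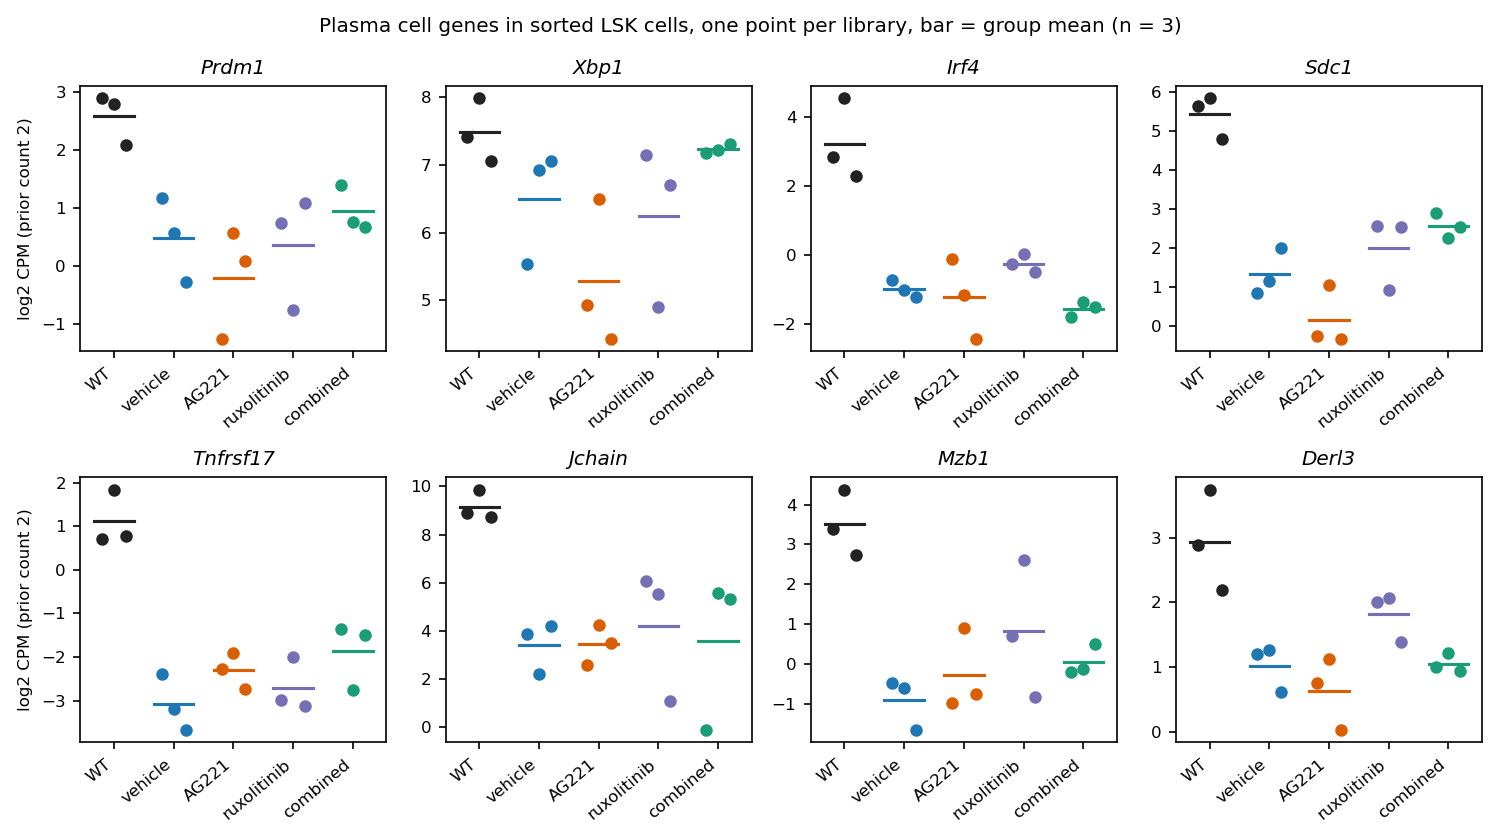
Level of each member in log2 CPM (prior count of 2) by group, with 1 point per library and a bar at the mean of the 3 libraries. In 7 panels the 3 WT points sit above every mutant point, while in the Xbp1 panel the combined points lie within the WT range.

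Prdm1 encodes BLIMP-1, the repressor that ends the B cell program. Its level was 7.40, 6.91 and 4.19 CPM in WT libraries B28, B30 and B31, and 2.18, 1.40 and 0.750 CPM in vehicle libraries A1, A3 and A4. It was 0.342, 1.41 and 0.982 CPM in AG221 libraries A8, A9 and A10, 1.601, 0.513 and 2.05 CPM in ruxolitinib libraries A14, A16 and A17, and 2.56, 1.62 and 1.53 CPM in combined libraries B24, B25 and B26. The mutant groups overlapped with each other except that the combined libraries all lay above the AG221 libraries, as in 24.3% of all genes. The gap between the lowest WT and the highest mutant library was 1.64-fold. The fitted log2 fold change of vehicle against WT was -2.09 (SE 0.54).

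Irf4 encodes a factor that B cells need to become plasma cells. Its level was 7.11, 23.5 and 4.86 CPM in WT libraries B28, B30 and B31, and 0.526, 0.415 and 0.355 CPM in vehicle libraries A1, A3 and A4. It was 0.855, 0.375 and 0.109 CPM under AG221, 0.754, 0.940 and 0.634 CPM under ruxolitinib, and 0.209, 0.311 and 0.278 CPM in the combined group. All combined libraries lay below vehicle and below ruxolitinib, as in 15.2% and 15.6% of all genes. All ruxolitinib libraries lay above vehicle, as in 3.67% of all genes. These groups had only 4 to 22 counts of Irf4 per library. WT library B30 stood 4.83-fold above the lowest WT library, and the lowest WT library was 5.17-fold above the highest mutant library. The log2 fold change of vehicle against WT was -4.76 (SE 0.67) and moved to -3.78 without B30, still the deepest change among the 3 regulators.

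Xbp1 encodes the transcription factor of the IRE1 branch and is used by many secretory and blood cells. Its level was 170.5, 254.1 and 133.0 CPM in WT, 46.2, 121.0 and 133.0 CPM in vehicle, and 30.5, 90.7 and 21.6 CPM under AG221. It was 141.7, 29.8 and 104.5 CPM under ruxolitinib and 145.0, 149.3 and 159.0 CPM in the combined group. All AG221 libraries were below WT, as in 36% of all genes. In vehicle, 1 library was level with the lowest WT library, and the combined libraries lay inside the WT range. They also lay above all vehicle and all ruxolitinib libraries, as in 19.5% and 19.9% of all genes. The log2 fold change against WT was -0.89 (SE 0.57) in vehicle and -0.30 (SE 0.57) in the combined group.

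Among the surface proteins, Sdc1 encodes syndecan-1 (CD138), the antigen by which plasma cells are usually sorted. Its level was 50.2, 57.4 and 27.8 CPM in WT and 1.73, 2.17 and 3.95 CPM in vehicle. It was 0.769, 2.02 and 0.727 CPM under AG221, 5.84, 1.84 and 5.75 CPM under ruxolitinib, and 7.41, 4.70 and 5.78 CPM in the combined group. Every combined library was above every vehicle and every AG221 library, and yet the highest mutant library was 3.75-fold below the lowest WT library. Over all genes, 19.5% had every combined library above vehicle, and 24.3% had every combined library above AG221. In order of the means the groups ran WT, combined, ruxolitinib, vehicle and AG221, and each mutant group overlapped with its neighbour in that order. The log2 fold change against WT was -4.11 (SE 0.53) in vehicle and -2.92 (SE 0.50) in the combined group.

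Tnfrsf17 encodes BCMA, the receptor through which APRIL sustains long-lived plasma cells. It had 43, 104 and 49 counts in WT libraries B28, B30 and B31, and 3, 1 and 0 counts in vehicle libraries A1, A3 and A4. The counts were 3, 4 and 2 under AG221, 1, 4 and 1 under ruxolitinib, and 6, 2 and 6 in the combined group. A count of 0 allows up to 3 counts in that library, and 8 of the 12 mutant libraries were at or under this floor. Pooled over libraries, the ratio of vehicle to WT was 1.79% (95% interval 0.482% to 4.65%) and that of combined to WT was 7.78% (4.18% to 13.4%), from exact Poisson intervals that cover counting error only.

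Jchain encodes the joining chain that links IgM pentamers and IgA dimers, and it was the most abundant member per transcript length in WT, at 243 ± 112 CPM per kb of exon (SD, n = 3), before Xbp1 at 57.2 ± 19.1. The Jchain level was 475.8, 935.3 and 422.1 CPM in WT libraries B28, B30 and B31. It was 14.5, 4.50 and 18.4 CPM in vehicle libraries A1, A3 and A4, and 5.86, 18.9 and 11.1 CPM in AG221 libraries A8, A9 and A10. The ruxolitinib libraries A14, A16 and A17 had 66.6, 45.9 and 2.01 CPM, and the combined libraries B24, B25 and B26 had 0.835, 47.8 and 40.1 CPM. The 12 mutant libraries spanned 79.8-fold, from combined B24 to ruxolitinib A14, against 2.22-fold in WT, so that ruxolitinib and the combination each held 2 libraries above every vehicle library and 1 below. The log2 fold change against WT was -5.62 (SE 1.28) in vehicle and -4.36 (SE 1.21) in the combined group.

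Mzb1 encodes a chaperone of the endoplasmic reticulum that assists the assembly of IgM. Its level was 10.4, 20.7 and 6.61 CPM in WT, 0.639, 0.574 and 0.237 CPM in vehicle, and 0.427, 1.78 and 0.509 CPM under AG221. It was 1.55, 6.02 and 0.485 CPM under ruxolitinib and 0.783, 0.829 and 1.34 CPM in the combined group. The combined libraries all lay above vehicle, as in 19.5% of all genes. Ruxolitinib A16 came within 1.10-fold of the lowest WT library, and the log2 fold change of vehicle against WT was -4.68 (SE 0.86). In the annotation used here 57.2% of the exon bases of Mzb1 also belong to exons of Spata24 on the same strand. Reads from these bases cannot be assigned to 1 gene by position alone, so the level of Mzb1 is uncertain.

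Derl3 encodes a derlin that takes part in the disposal of misfolded proteins from the endoplasmic reticulum. Its level was 7.29, 13.3 and 4.49 CPM in WT, 2.22, 2.33 and 1.46 CPM in vehicle, and 1.62, 2.11 and 0.946 CPM under AG221. It was 3.96, 4.10 and 2.54 CPM under ruxolitinib and 1.93, 2.25 and 1.85 CPM in the combined group. The ruxolitinib libraries all lay above the libraries of the other mutant groups, and their highest came within 1.10-fold of the lowest WT library. Over all genes, 3.67% had all ruxolitinib libraries above vehicle, while 8.64% had AG221 and 15.6% had combined libraries all below ruxolitinib. The log2 fold change of vehicle against WT was -2.06 (SE 0.40), and -1.55 without WT library B30.

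WT library B30 had the highest level of 7 of the 8 members, Prdm1 being highest in B28, and B31 the lowest of 7. Over the 12 mutant libraries, the Pearson correlation of log2 CPM with Jchain was 0.49 for Mzb1, 0.31 for Derl3 and 0.20 for Irf4, and it lay between -0.25 and -0.0094 for Sdc1, Xbp1, Prdm1 and Tnfrsf17. Over the same libraries it was 0.89 between Sdc1 and Xbp1, and 0.73 between Derl3 and Irf4. These are descriptions over libraries that differ in depth and treatment, and the part of these differences in the correlations was not tested.

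The 7 members with separate levels were below WT in every treated library by their definition, so nothing is read from that about treatment. In Xbp1 the combined libraries lay inside the WT range, as did ruxolitinib A14 and vehicle A4. When AG221, ruxolitinib and the combination were each tested against vehicle with edgeR's quasi-likelihood test (Benjamini-Hochberg adjusted over all genes), 0 of 8 members were called at an adjusted p under 0.05. The share of all genes called was 0.987% for AG221, 0.0168% for ruxolitinib and 12.5% for the combination. An unadjusted p under 0.05 was found for 1 member under AG221 (Sdc1), where 25.2% of all genes had one, for 1 under ruxolitinib (Mzb1), beside 4.56% of all genes, and for 2 in the combination (Sdc1 and Tnfrsf17), beside 26.4% of all genes. Tnfrsf17 passed the filter through WT alone and had 0 to 6 counts in these libraries, so nothing is read from its tests between mutant groups. DESeq2 also called 0 members in each of the 3 comparisons.

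The intervals of these differences were wide. Here and below they are a normal approximation from the SE, narrower than the edgeR test would give. For Derl3 under ruxolitinib against vehicle the interval was 0.046 to 1.58, with an unadjusted p of 0.057 by edgeR. For Jchain the log2 fold change against vehicle was -0.06 under AG221 (95% interval -2.18 to 2.06), 1.62 under ruxolitinib (-0.52 to 3.76) and 1.25 in the combined group (-0.87 to 3.38). For Sdc1 it was -1.17 under AG221 (-2.17 to -0.16), 0.78 under ruxolitinib (-0.17 to 1.73) and 1.19 in the combined group (0.23 to 2.14), with an adjusted p of 0.18, 1 and 0.13 by edgeR. Mzb1 had a log2 fold change of 2.45 under ruxolitinib (0.85 to 4.05), with an adjusted p of 0.87 by edgeR, and library A16 had the highest level. Sdc1 and Xbp1 were called lower under AG221 when library A9, which had the highest levels of both in that group, was left out (adjusted p = 0.029 and 0.025 by edgeR). The share of all genes called in that fit was not counted.

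Levels of 2 members were higher in the combined group than under AG221 alone. Combined replicate names begin with B and those of the other mutant groups with A. Treatment and whatever the letter stands for therefore cannot be told apart in any comparison with the combined group. Sdc1 rose by a log2 fold change of 2.36 (SE 0.52, edgeR adjusted p = 0.0056), and every combined library was above every AG221 library. Xbp1 rose by 1.67 (SE 0.59, edgeR adjusted p = 0.043), also without overlap. Over all genes, 24.3% had every combined library above every AG221 library. Of all genes, 33.2% were called in this comparison and 18.9% were called higher, against 2 of the 7 members other than Tnfrsf17, a share near the background. The call of Sdc1 held without any single library of either group, while that of Xbp1 was lost in 5 of the 6 such fits, without any library but AG221 A9, with adjusted p of 0.083 to 0.16 by edgeR.

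**Figure D2:**
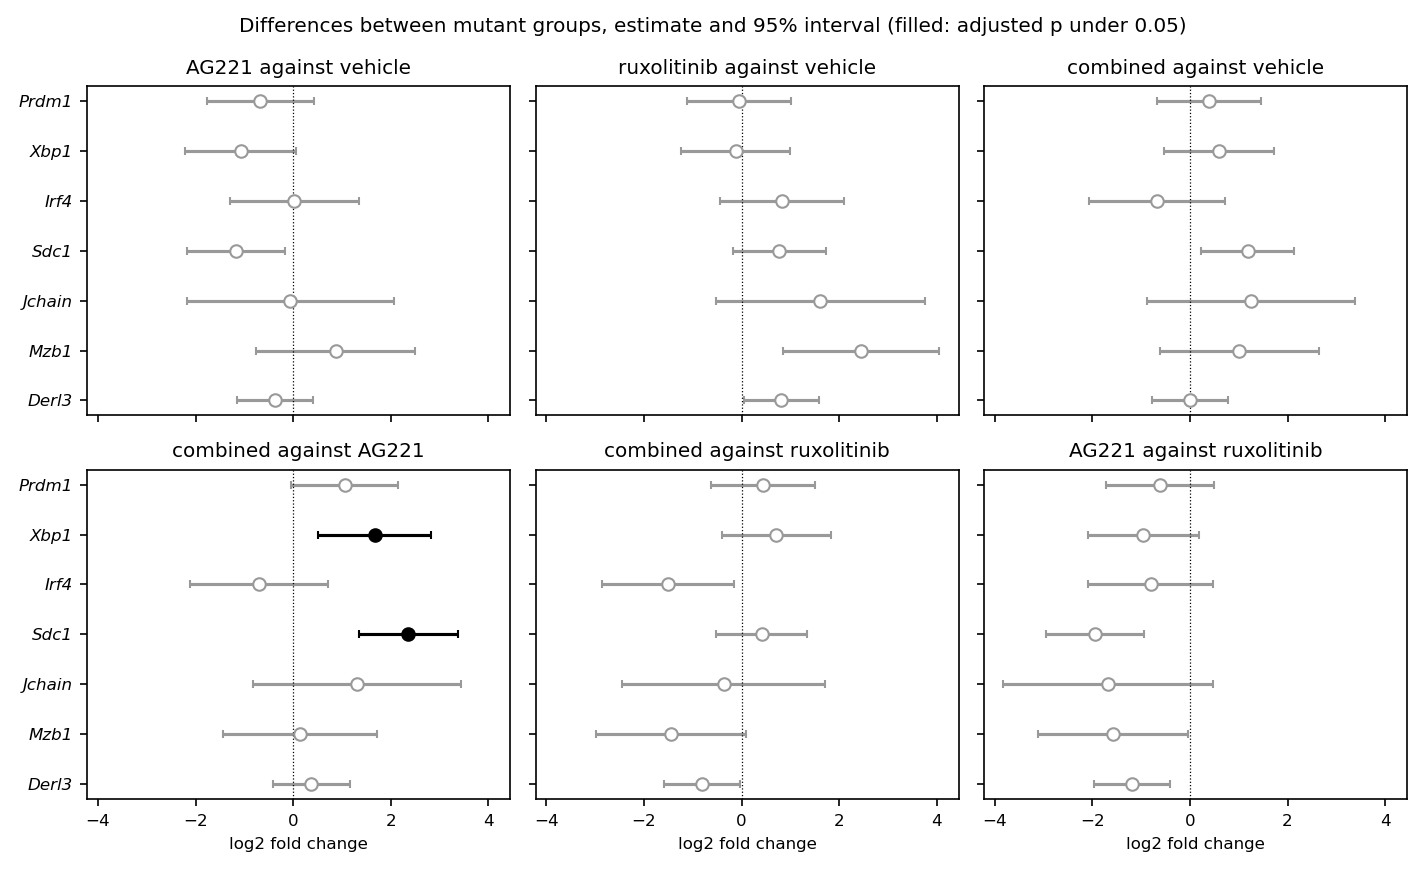
Log2 fold change with its 95% interval for 7 members in the 6 comparisons between mutant groups. The intervals are a normal approximation from the SE and are narrower than the edgeR test would give. Tnfrsf17 is not drawn because its counts were 0 to 6 in these groups. Filled points passed the adjusted p threshold of 0.05 in edgeR, which only Sdc1 and Xbp1 did, in combined against AG221.

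The libraries also differed in how well GC-rich transcripts were represented, and this moved with Xbp1 and Sdc1. The GC balance, which is the median log2 deviation of the 20% of genes with the highest transcript GC content minus that of the 20% with the lowest, was -0.84 in AG221 A8, -0.55 in AG221 A10 and -0.27 in ruxolitinib A16, and between -0.079 and 0.29 in the other 12 libraries. These 3 libraries had the lowest Xbp1 levels of all 15. Derl3, with a GC content of 59.4%, lay at the 95.4th percentile of tested genes, and Mzb1, with 55.8%, at the 82.0th. Both had their highest mutant level in ruxolitinib A16, while Derl3 had its lowest in AG221 A10. Sdc1, with a GC content of 58.6%, lay at the 93.3rd percentile, and Xbp1, with 51.4%, at the 58.9th. In alternatives chosen after seeing the data, both calls against AG221 remained when each library was corrected for GC content, and 0 of 8 members were called when the 3 libraries were left out, which leaves 1 AG221 library.

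**Figure D3:**
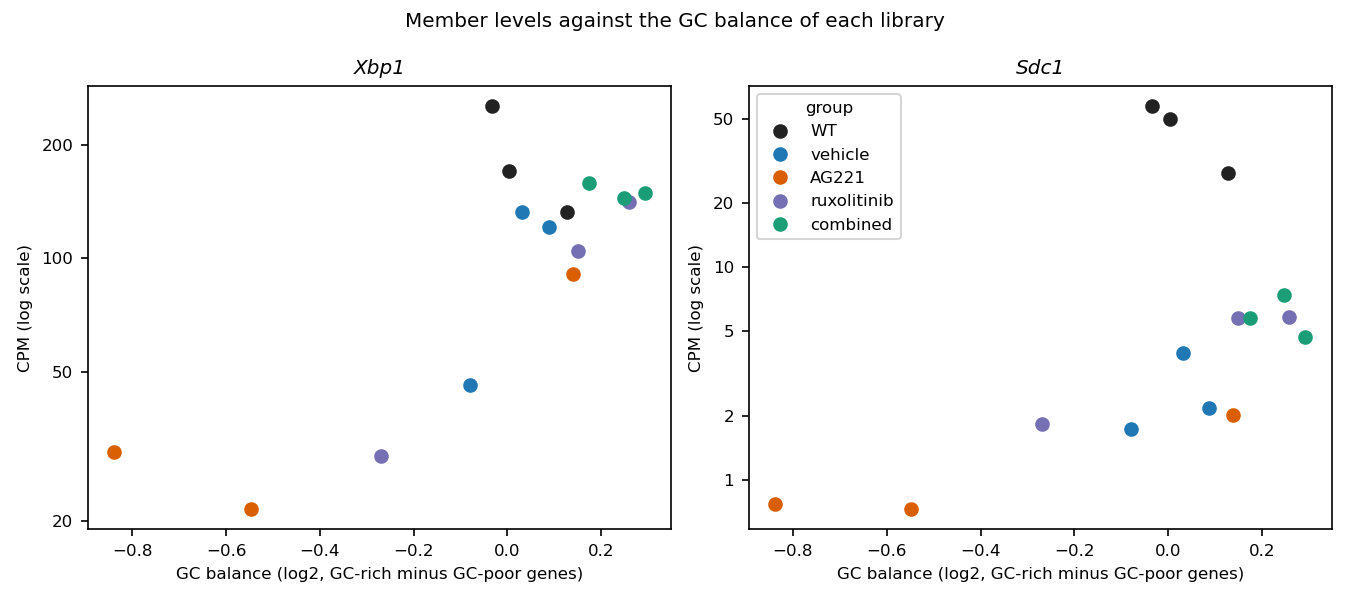
CPM of Xbp1 and Sdc1 on log axes against the GC balance of each library, coloured by group. The 3 libraries with a balance under -0.2 have 21.6 to 30.5 CPM of Xbp1.

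Between the combined group and ruxolitinib, 0 of 8 members were called by edgeR, against 12.4% of all genes. Nothing is read from Tnfrsf17, which passed the filter through WT alone, in this comparison or between AG221 and ruxolitinib. Irf4 alone had an unadjusted p under 0.05, beside 25.4% of all genes, with a log2 fold change of -1.51 (95% interval -2.87 to -0.15), and DESeq2 also called 0 members. Between AG221 and ruxolitinib, 0 of 8 were called by edgeR against 3.43% of all genes, with 2 members at an unadjusted p under 0.05, beside 25.5% of all genes. Sdc1 had a log2 fold change of -1.95 (95% interval -2.95 to -0.94, edgeR adjusted p = 0.055), and Derl3 one of -1.18 (-1.96 to -0.40, edgeR adjusted p = 0.10) without overlap. In 8.64% of all genes, AG221 lay below ruxolitinib without overlap. DESeq2 called Sdc1 and Derl3 lower, with adjusted p of 0.0028 and 0.039, and the share of all genes it called was not counted.

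The immunoglobulin genes also showed a step between WT and mutant cells. Like all lists here, theirs was chosen with earlier results of these data known. Summed over the 12 constant genes, the level was 4872 to 16657 CPM in WT and 101 to 837 CPM in the 12 mutant libraries. Of the 11 tested constant genes 8 were lower in vehicle than in WT by edgeR and 0 higher, where 33.3% of all genes were called, 17.9% lower and 15.4% higher. Ighm, the IgM heavy chain, led in every library and fell by 5.52 on the log2 scale (SE 0.68, adjusted p = 0.00033), and Igkc, the kappa light chain, fell by 7.001 (SE 1.74, adjusted p = 0.012). Ighg1, Ighg2b, Ighg2c, Ighg3, Iglc2 and Iglc3 were also called lower, Ighd, Igha and Iglc1 were not, and Ighe did not pass the filter. Without WT library B30 the count was 5 of 11.

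The switched classes differed from one WT library to the next. Igha, the IgA heavy chain, led among the switched heavy chains in B28 at 151.1 CPM, Ighg1 led in B30 at 669.3 CPM and Ighg2c led in B31 at 120.3 CPM. In the vehicle libraries Igha led throughout, at 19.9 to 63.4 CPM, while under AG221 it was at 0.704 to 1.15 CPM and an IgG gene led in each library. Ighg1, for example, was at 1.02 to 669.3 CPM in WT and 0.0319 to 0.118 CPM in vehicle, and Ighg3 was at 0 in all 3 combined libraries.

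The ratio of Jchain to these transcripts differed between libraries, most widely under ruxolitinib and in the combined group. Jchain amounted to 5.62% to 8.66% of the summed constant genes in WT, 4.47% to 7.75% in vehicle, 2.05% to 4.03% under AG221, 1.08% to 8.72% under ruxolitinib and 0.294% to 12.2% in the combined group. The mutant libraries with the least Jchain, combined B24 and ruxolitinib A17, were also those with the least switched heavy chain, 0.887 and 1.90 CPM summed over the IgG, IgA and IgE genes, against 10.2 to 223.7 CPM in the other 10 mutant libraries and 185.8 to 873.8 CPM in WT. Both had Ighm within the range of the other mutant libraries. No constant gene was called in combined against vehicle by edgeR.

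**Figure D4:**
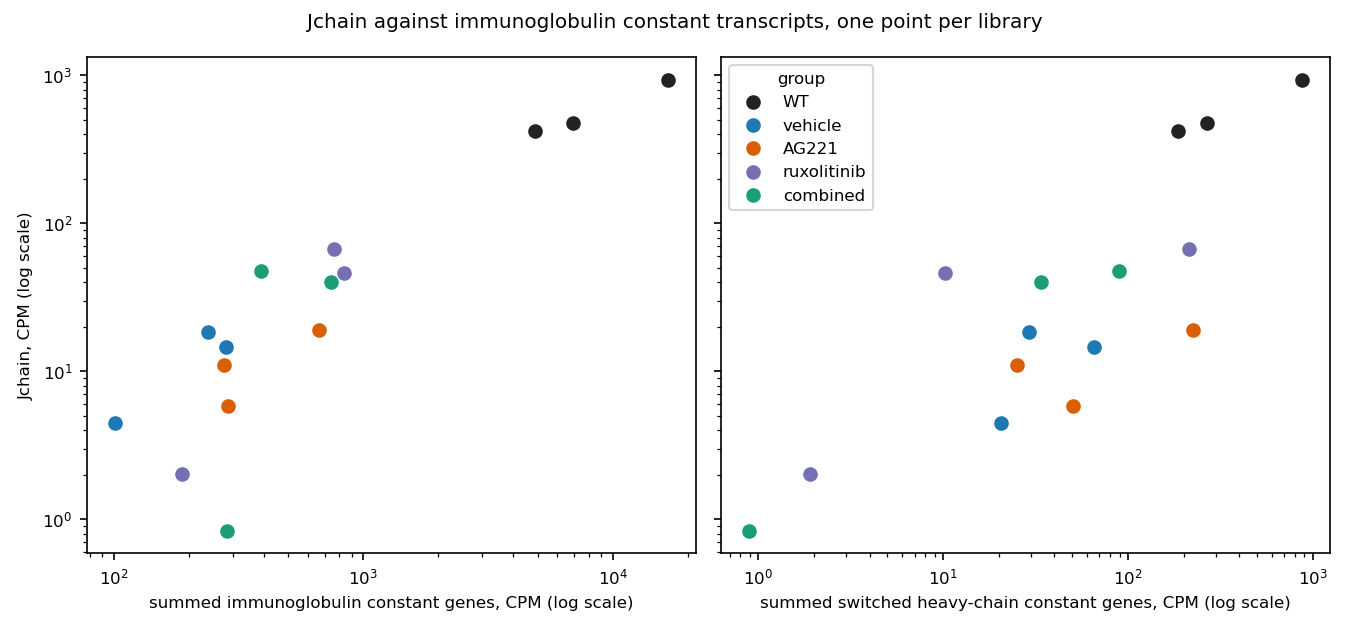
Jchain against the summed immunoglobulin constant genes (left) and the summed switched heavy-chain constant genes (right) in CPM on log axes, with 1 point per library. The WT libraries stand apart at the upper right, and combined B24 and ruxolitinib A17 at the lower left of the right panel, at 0.887 and 1.90 CPM.

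Other plasma cell genes moved less uniformly. Of 19 tested, 8 were lower and 2 higher in vehicle than in WT by edgeR, beside 17.9% and 15.4% of all genes. The median log2 fold change was -1.11, beside -0.09 over all genes. Txndc5, a disulfide isomerase abundant in plasma cells, fell by 1.67 (SE 0.42, adjusted p = 0.012), and Trp53inp1 fell by 1.11 (SE 0.37, adjusted p = 0.037). Cd27 and Tnfrsf13b, whose receptors are also found on other blood cells, had log2 fold changes of -0.33 (SE 0.16) and -0.11 (SE 0.36). Named after their values were seen, Pou2af1, a B lineage coactivator, fell by 4.34 (SE 0.75), and Fcrl5 and Fkbp11 were the 2 that were higher. Without WT library B30, 3 of 19 were lower.

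In the combined group 2 of these 19 genes were called higher than in vehicle by edgeR and 0 lower. This share is near the background, where 8.28% of all genes were called higher. Txndc5 was at 38.1 to 72.2 CPM in vehicle, 113.0 to 201.1 CPM in the combined group and 107.9 to 241.6 CPM in WT, a rise of 1.602 on the log2 scale (SE 0.42, adjusted p = 0.023). Edem1, which helps to clear misfolded glycoproteins and is named after its values were seen, rose by 1.49 (SE 0.39, adjusted p = 0.023). Without vehicle A1, vehicle A3, combined B24 or combined B25 in turn, neither passed.

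The genes of the secretory pathway and the unfolded protein response, which plasma cells express at high levels, did not share the members' step between WT and vehicle. Of 35 tested, 23 were higher and 1 lower in vehicle than in WT by edgeR, beside 15.4% and 17.9% of all genes. The median log2 fold change was 0.68. Hspa5, the chaperone BiP, was at 630 to 721 CPM in WT and 2603 to 3523 CPM in vehicle, a rise of 2.11 (SE 0.16, adjusted p = 3.9e-06). Calr, calreticulin, rose by 1.41 (SE 0.19, adjusted p = 0.00056) and Canx, calnexin, by 0.76 (SE 0.14, adjusted p = 0.0037), while Pdia3 had a log2 fold change of 0.08 (SE 0.55). The 1 that was lower was Ern1, named after its values were seen, which encodes IRE1, the enzyme that splices Xbp1 mRNA, and it fell by 1.19 (SE 0.37, adjusted p = 0.027).

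In the combined group 11 of these 35 genes were called lower than in vehicle by edgeR and 0 higher, where 4.21% of all genes were called lower. Hspa5 was at 665 to 952 CPM, a fall of 1.89 on the log2 scale (SE 0.15, adjusted p = 2.5e-05 by edgeR). It lay below vehicle without overlap, as did 15.2% of all genes. Calr fell by 0.65 (SE 0.18, adjusted p = 0.034 by edgeR) and Canx by 0.61 (SE 0.14, adjusted p = 0.012 by edgeR). The count was 5 without vehicle A4, 5 without combined B24, 6 without vehicle A1 and 6 without combined B25.

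Of the 17 tested B cell genes, 0 were called in combined against vehicle, beside 12.5% of all genes. In vehicle against WT 7 were lower and 0 higher by edgeR, beside 17.9% and 15.4% of all genes. Bach2, a repressor that holds B cells before the plasma cell stage, fell by 1.22 (SE 0.41, adjusted p = 0.037). Cd79b, Ciita and Bcl6 had log2 fold changes of -0.18 (SE 0.22), 0.09 (SE 0.53) and -0.59 (SE 0.31). The summed level of the list was 116 to 154 CPM in WT and 45.3 to 91.3 CPM in the mutant libraries. Without WT library B30, 0 of 17 were called.

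**Figure D5:**
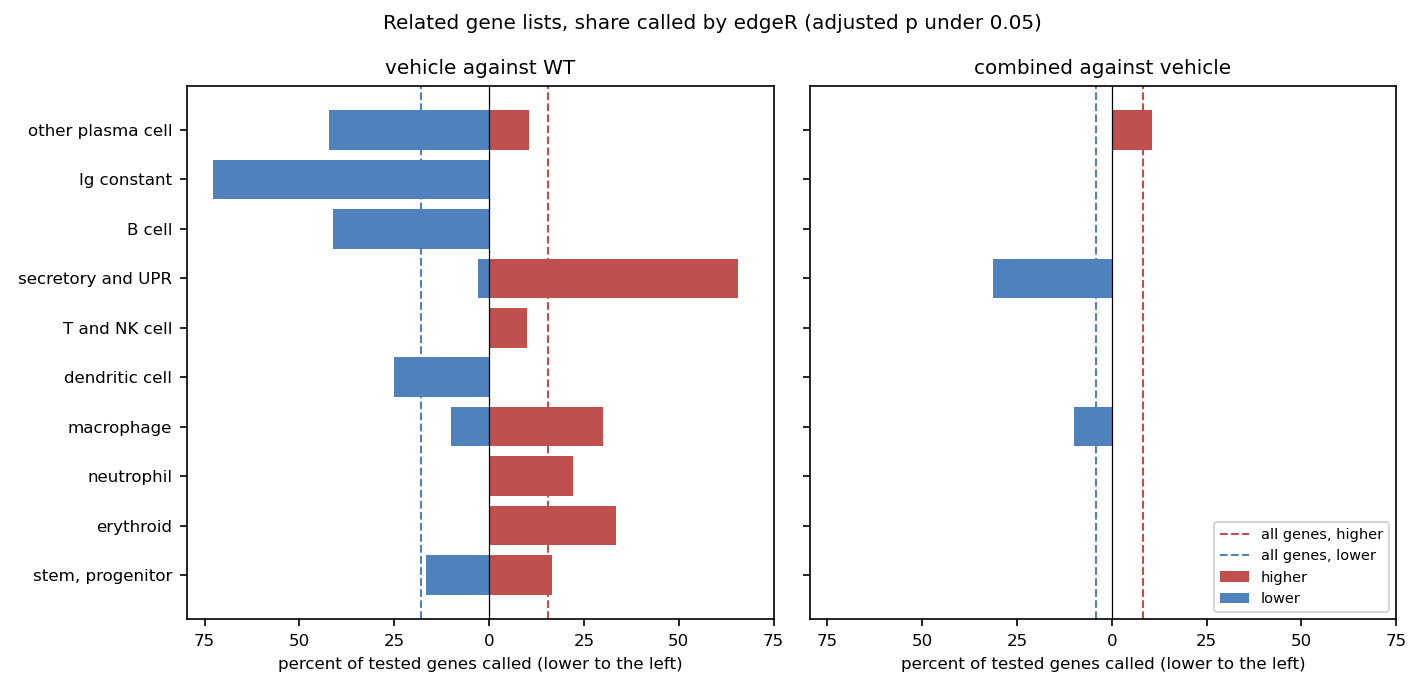
Share of the tested genes of each list called higher (right) or lower (left) by edgeR in vehicle against WT and in combined against vehicle, in percent, with dashed lines at the shares over all 17834 genes. The immunoglobulin bar reaches left with 8 of 11 genes and the secretory bar reaches right with 23 of 35 genes in vehicle against WT.

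Markers of other cells also differed between WT and mutant libraries, in both directions. Macrophage and monocyte markers summed to 215 to 293 CPM in WT and 402 to 2233 CPM in the mutant libraries, and erythroid markers to 268 to 403 and 620 to 3580 CPM. T and NK cell markers summed to 205 to 267 CPM in WT and 416 to 783 CPM in the mutant libraries, most of it from Nkg7, a granule protein gene named after its values were seen, which rose by 1.29 on the log2 scale in vehicle (SE 0.15, adjusted p = 0.00023 by edgeR). The other 9 tested genes of that list, the T cell receptor complex genes Cd3d, Cd3e, Cd3g and Trac among them, had log2 fold changes below 0 in vehicle, with 0 called, and the median of the list was -1.08. Neutrophil markers overlapped, with 81.7 to 133.6 CPM in WT and 39.2 to 780.5 CPM in the mutant libraries. Dendritic cell markers summed to 896 to 990 CPM in WT and 305 to 982 CPM in the mutant libraries. Of their 12 genes 3 were called lower in vehicle, where 17.9% of all genes were. No gene of any of these lists was at 0 in every library of a group. Their part in the differences of the members from WT was not tested.

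The genes with a pattern most like that of Jchain over all 15 libraries, leaving out the members and the antigen receptor genes, were 1700084J12Rik, Gm438, Xist, AI593442 and Tulp1, with Pearson correlations of log2 CPM of 0.92, 0.89, 0.89, 0.87 and 0.87. These largely restate the step between WT and mutant libraries, which is also the step between the sexes. Over the 12 mutant libraries they were Gm3699, C1qb, 1700084J12Rik, Gm38351 and C1qc, with 0.87, 0.80, 0.80, 0.79 and 0.78. By Spearman correlation only Gm3699 and C1qc stayed among the first 5, and C1qb was at 0.71. These are the highest values among all genes that passed the filter, over 12 libraries. C1qb and C1qc encode chains of complement C1q, made by macrophages, and a link of Jchain to these cells was not tested.

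The promoters of 7 members were matched by symbol in RefSeq on GRCm38.p6, and Mzb1 was left out. The 250 bases before the annotated start were searched on both strands for short motifs of factors among the members and their partners. CCACG, part of sites bound by ATF6 and XBP1, was in 4 of 7 (Sdc1, Prdm1, Irf4 and Derl3) and in 28.3% of all 32851 promoters. CCAAT, bound by NF-Y, was in 3 of 7 and in 33.9% of all. The BLIMP-1 core GTGAAA was in 1 of 7, Xbp1, and in 11.1% of all, and the octamer ATGCAAAT of OCT factors was in 0 of 7 and in 1.601% of all. The 3 sequences shown are those of Derl3, which has the most matches, of Sdc1, the member called with the smallest adjusted p, and of Jchain, the most abundant member in WT, which has none. Matches to CCACG and CCAAT on either strand are in capitals.
Derl3 (chr10:75893148-75893397, plus strand): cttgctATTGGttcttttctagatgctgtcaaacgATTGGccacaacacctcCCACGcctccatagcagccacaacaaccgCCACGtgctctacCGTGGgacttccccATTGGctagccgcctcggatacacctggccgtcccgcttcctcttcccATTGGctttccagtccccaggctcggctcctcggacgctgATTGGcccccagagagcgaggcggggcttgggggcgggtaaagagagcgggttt
Sdc1 (chr12:8771146-8771395, plus strand): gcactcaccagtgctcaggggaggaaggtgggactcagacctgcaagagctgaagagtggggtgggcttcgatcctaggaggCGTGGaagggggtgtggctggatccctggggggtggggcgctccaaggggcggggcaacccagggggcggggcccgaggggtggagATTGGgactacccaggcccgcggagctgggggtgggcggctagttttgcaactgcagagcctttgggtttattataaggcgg
Jchain (chr5:88527898-88528147, minus strand): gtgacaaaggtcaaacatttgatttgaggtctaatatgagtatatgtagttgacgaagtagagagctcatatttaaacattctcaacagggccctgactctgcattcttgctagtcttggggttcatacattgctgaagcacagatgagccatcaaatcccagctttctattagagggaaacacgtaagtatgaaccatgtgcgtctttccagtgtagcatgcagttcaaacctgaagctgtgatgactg

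In the Derl3 sequence, CGTGG at -156 to -152 and ATTGG at -142 to -138, counted back from the start, are separated by 9 bases, which is the spacing of the endoplasmic reticulum stress response element CCAAT-N9-CCACG read on the other strand. This arrangement was in 37 of 32851 promoters (0.113%), and of the members searched in Derl3 alone. Derl3 was at 23.97% of its WT mean in vehicle and at 24.05% in the combined group, whereas Hspa5 was above WT in vehicle and lower in the combined group than in vehicle. A match is a description of the letters and not a bound site.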

How the data were processed

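Raw counts per Ensembl gene were deposited by the authors, who aligned paired-end reads of amplified cDNA with STAR 2.5.1a to mm10 and counted them with its gene-count option; whether strand was used is not given in the sources used here. A second deposited table holds the same counts divided by 1 DESeq2 1.6.3 size factor per library and was not used. Of 45232 identifiers, 44585 had a symbol. Genes were filtered by filterByExpr, scaled by the trimmed mean of M-values and fitted in 1 model of all 5 groups with edgeR 4.0.16 in R 4.3.3 (quasi-likelihood test, Benjamini-Hochberg adjustment over 17834 genes, threshold 0.05). DESeq2 1.42.0 and other alternatives are given in the closing section. In simulated counts, known changes were placed only in more highly expressed genes of the combined group, and the median fitted changes were close to them. This says nothing about the power to call members at low CPM. Log2 CPM used a prior count of 2, and exon lengths, GC content and overlaps came from GENCODE M21.

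The 8 members and all gene lists were chosen with earlier results of these data known. Named by rule were the members, the immunoglobulin constant genes, at most 4 genes of each other list with the highest mean CPM, and the 5 genes most correlated with Jchain. Outside this rule, other list genes were named after their values were seen, so these are picked examples. Cd3d, Cd3e, Cd3g, Trac and Ly6a were also named outside it. With 18836625 to 32174287 counts per library, 3 counts correspond to 0.101 to 0.157 CPM.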

Additional observations from a re-analysis of the deposited data

How the results depend on the processing

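Of the counts of members and of listed genes called, 89 alternatives stayed within 1.5 times of the value reported, 11 gave more and 12 fewer. In AG221 against ruxolitinib, edgeR called 0 members, DESeq2 called 2 (Sdc1 and Derl3), and 1 (Sdc1) was called with upper quartile normalization, with GC content offsets, with any gene of 1 count or more kept, and with genes under 10 counts in some library removed. In combined against ruxolitinib, a fit of the 2 groups alone called 1 (Irf4). Leaving out AG221 A8, AG221 A10 and ruxolitinib A16 together, an alternative chosen after seeing the data like the GC offsets, gave 0 members in combined against AG221 (from 2), 1 in combined against vehicle (Sdc1) and 25 listed genes in combined against vehicle (from 14). Leaving out 1 library at a time gave 0 to 2 members in AG221 against vehicle, 1 to 2 in combined against AG221 and 0 to 3 in AG221 against ruxolitinib. It gave 29 (without WT B30) to 65 listed genes in vehicle against WT (from 66), and 5 (without combined B24) to 16 in combined against vehicle. The Jchain difference of AG221 from vehicle changed sign, to 0.084 with upper quartile normalization and 0.58 without the 3 libraries, and ran from -0.56 to 0.33 when 1 library was left out. Of the 48 differences of a member between 2 mutant groups, 13 changed sign in at least 1 alternative and 0 of those were called in any fit. For the alternative fits the share of all genes called was not counted, so their counts of members and listed genes have no background beside them. The causes were not tested.

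Having 3 libraries per group limits the precision of the members. Jchain had an SE of 1.28 on the log2 scale, and Tnfrsf17 had at most 6 counts in a mutant library. Sex, genotype and transplantation cannot be told apart in any difference from WT. The combined group differs in its replicate letter from the other mutant groups, so treatment and whatever the letter stands for cannot be told apart there. No paired analysis was possible because the groups share no replicate numbers.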

Other observations

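The 12 stem and progenitor markers summed to 3919 to 4397 CPM in WT and 2458 to 3796 CPM in the mutant libraries, without overlap. Of these, 2 were higher and 2 lower in vehicle than in WT by edgeR, near the shares of all genes, 15.4% and 17.9%. The median log2 fold change was -0.50. Named after their values were seen, Hlf, a factor of long-term stem cells, fell by 2.22 on the log2 scale (SE 0.42, adjusted p = 0.0043) and Procr, their surface marker EPCR, by 1.33 (SE 0.49, adjusted p = 0.049). Slamf1, named likewise, and Cd48 were the 2 that were higher, by 1.49 (SE 0.38, adjusted p = 0.012) and 1.30 (SE 0.23, adjusted p = 0.0028). None of the 12 was called in combined against vehicle, although Hlf was at 96.7 to 171.5 CPM in the combined group and 24.5 to 103.4 CPM in vehicle, against 219 to 319 CPM in WT.

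Of the dendritic cell markers, the 3 that were lower in vehicle were Ccr9, Ly6d and Flt3, which fell by 3.30 (SE 0.98, adjusted p = 0.023), 2.64 (SE 0.91, adjusted p = 0.040) and 1.99 (SE 0.61, adjusted p = 0.025) by edgeR. Ly6d and Flt3 also mark lymphoid progenitors. Of the 10 macrophage and monocyte markers, 3 were higher and 1 was lower in vehicle by edgeR, beside 15.4% and 17.9% of all genes. Ccr2 rose by 3.59 (SE 0.40, adjusted p = 0.00014), Csf1r by 1.65 (SE 0.40, adjusted p = 0.011) and Cd68 by 0.81 (SE 0.26, adjusted p = 0.031), while Mrc1, which encodes the mannose receptor of macrophages, fell by 1.37 (SE 0.35, adjusted p = 0.012). Of the 9 neutrophil markers 2 were higher and 0 lower, beside the same shares of all genes. Among the 2, Lcn2 rose by 3.12 (SE 0.65, adjusted p = 0.0059 by edgeR). All of these were named after their values were seen.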
